A study of Rattus norvegicus with 12 samples.

Results

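ELT3 is a Tsc2-null smooth muscle line from a uterine leiomyoma of an Eker rat, and the measurements described here are its mRNA response to rapamycin, taken as every probe set of the array compared between the rapamycin-treated and the DMSO-treated ELT3 cultures. The arrays were taken by their labels, and they were 6 of the 12 arrays of the series, 3 with rapamycin at 20 nM for 24 hours and 3 with DMSO for 24 hours, each read at 23188 probe sets. All 6 cultures lacked Tsc2 and were kept in the same serum-containing medium, with 10% fetal bovine serum. The other 6 arrays were of ELT3-245, a derivative grown from a rapamycin-resistant ELT3 tumour of a mouse and treated in the same way. Their values are described only where the responses of the lines are compared. All 12 arrays were in the fit, however, and together they set the spread behind its p-values. Biotin-labelled RNA was read on Clariom S arrays for rat, with log2 signals from RMA as the deposited values, so a difference of 1 is a doubling of the signal. The labels state a final 20 nM rapamycin, yet the volumes in them (10 µl of stock at 20 mM for 10 ml of culture) come to 20 µM. As a model the group has limits that the labels set: it is 1 cell line from 1 tumour, at 1 dose and 1 time. The cultures were grown in triplicate with nothing said of separate passages or days. The p-values therefore measure the spread between such cultures, pooled over both lines. An exact permutation test of 3 arrays against 3 could not go below p = 0.1, and tests were therefore taken from a model across all probe sets.

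Tuberin, the product of Tsc2, and hamartin form a complex that switches off the small GTPase Rheb, and without it Rheb keeps the kinase complex mTORC1 active. Active mTORC1 drives ribosome production, translation and the synthesis of lipids, nucleotides and amino acids, in part through the transcription factors SREBP, HIF1, MYC and ATF4, and it restrains autophagy, lysosome genes and the insulin receptor substrates. Rapamycin binds the immunophilin FKBP12, and the pair blocks mTORC1, in full for some substrates and in part for others.

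The 6 arrays matched their label as smooth muscle-type cells of a mesenchymal kind in part. In DMSO the signal was 17.70 ± 0.04 for Vim (vimentin), 15.70 ± 0.09 for Des (desmin), 15.09 ± 0.11 for Acta2 (smooth muscle α-actin) and 14.78 ± 0.05 for Tagln (transgelin, SD, n = 3 each), among an array median of 6.69 to 6.72. The late smooth muscle markers were low, at 4.67 ± 0.13 for Myh11 and 6.61 ± 0.11 for Cnn1, below the array median, while the receptor for progesterone, Pgr, was at 10.87 ± 0.14 and that for estrogen, Esr1, at 6.67 ± 0.30. The epithelial markers Epcam, Cdh1 and Krt18 were at 3.93, 5.40 and 4.43, whereas Krt8 lay above the array median, with its values given among the adhesion genes. Mesenchymal and fibroblast genes were bright as well. The mean over 14 of them lay between 12.60 and 12.85 in DMSO, and 0 were below the median signal. These values alone therefore do not tell smooth muscle cells from fibroblasts. The mean log2 signal over 13 macrophage and leukocyte markers lay between 5.80 and 5.89 in DMSO and between 5.72 and 5.88 in rapamycin, with the defining Ptprc at 4.33, and the means over 9 endothelial and 7 fat cell markers were as low, between 4.93 and 5.72 in all 6 arrays. Arrays of a group correlated at 0.9928 to 0.9958 across probe sets. The first principal component of the 6 arrays, 59.1% of the variance, separated the treatments, and the second, 15.4%, set ELT3 rapamycin replicate 3 apart from the rest (at 34.78, the others between -23.63 and 8.379). This array had the narrowest interquartile range (5.263, against 5.48 to 5.661). Counts without it are given beside some of the results. Other lists changed by a few genes too, such as the lysosome genes called higher, from 7 to 9.

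Rapamycin moved a large part of what was measured. A probe set is called here at a Benjamini-Hochberg adjusted p under 0.05 in limma, over all 23188 probe sets, with a change of at least 1.5-fold (0.585 on the log2 scale). By this rule 3692 probe sets, 15.9% of those tested, were called, 1732 higher (7.47%) and 1960 lower (8.45%) in rapamycin. The changes were mostly modest, with a median of 1.80-fold among those higher and 1.78-fold among those lower, and the tails were unequal. Among the probe sets that were higher, 79 changed at least 4-fold and 13 at least 8-fold, against 33 and 2 among those that were lower. The 3 rapamycin arrays did not overlap the 3 DMSO arrays for 3654 of the called probe sets, against 37.7% of all probe sets, and 38 called ones did overlap. The median change of all probe sets was 0.02. Only 293 of the probe sets called higher and 173 of those called lower lay below the median signal. The shares of all probe sets, 7.47% higher and 8.45% lower, are the background of every list, also where they are not repeated. Since few dim probe sets were called, these shares are lower than those among bright probe sets, and most lists hold mainly bright genes. Since RMA sets the arrays on a common scale, a change in the amount of RNA per cell would not show in these values. Where a list is said to hold 0 genes in a direction, the number at an unadjusted p under 0.05 in limma stands beside it. Of all 23188 probe sets 8138 had such a p, in either direction. The unequal-variance test gene by gene called 0 there too. It called only 634 probe sets higher and 705 lower in all, so that its 0 says little. In cultures measured in bulk, fewer cells in a state and less of an mRNA in each cell cannot be told apart.

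**Figure D1:**
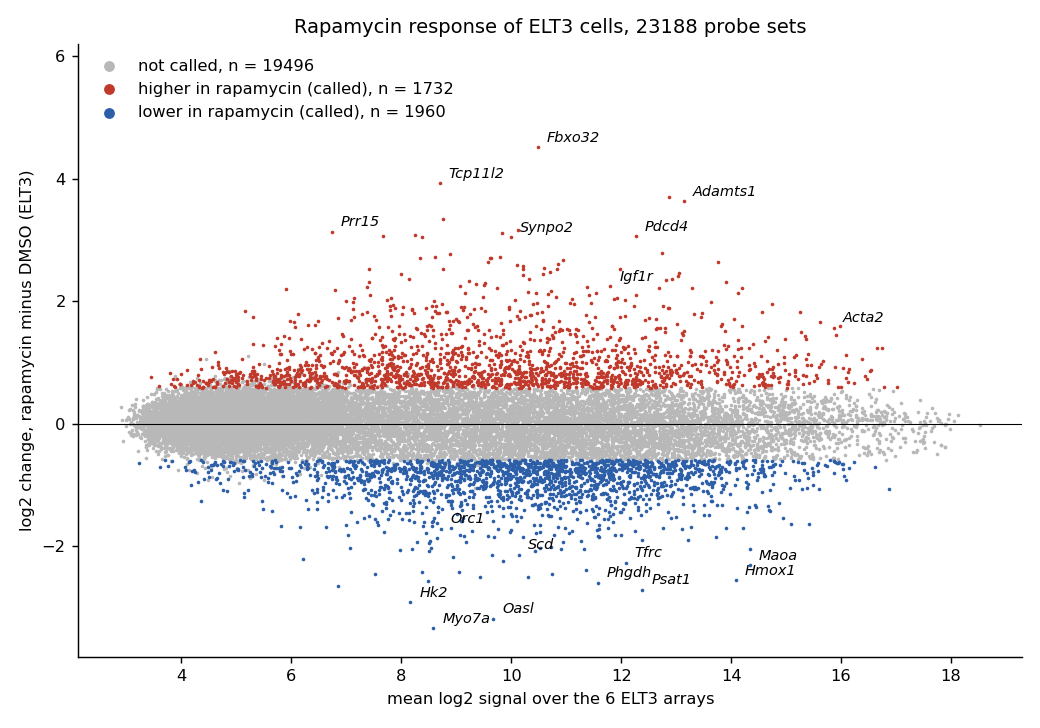
Each point is 1 of 23188 probe sets, with the mean log2 signal over the 6 ELT3 arrays on the x axis and the log2 change, rapamycin minus DMSO, on the y axis. Red marks the 1732 probe sets called higher and blue the 1960 called lower. The highest point is Fbxo32, at 4.51, and the lowest Myo7a, at -3.33.

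The largest rise was that of Fbxo32 (probe set TC0700003181.rn.2, chromosome 7), which encodes atrogin-1, a ubiquitin ligase subunit of muscle atrophy and a textbook FoxO target. Its log2 signal was 8.36, 8.11 and 8.20 in the DMSO arrays and 12.85, 12.57 and 12.80 in the rapamycin arrays. This is a 22.8-fold rise (log2 4.51, standard error 0.15, adjusted p = 2.26e-08 from limma). Tcp11l2, a gene of the TCP11 family, followed at 6.83, 6.50 and 6.88 in the DMSO arrays and 10.64, 10.72 and 10.63 in the rapamycin arrays, a change of 3.92 (adjusted p = 8.52e-08 from limma). Secreted proteins are encoded by several of the next. Prelp, a leucine-rich proteoglycan of the matrix, rose by 3.71, Adamts1, a matrix protease, by 3.63, and Mgp, the matrix Gla protein that holds back calcification, by 3.05. Prelp stood at 10.58, 11.46 and 11.01 in the DMSO arrays and 14.89, 14.59 and 14.71 in the rapamycin arrays, with no overlap of the groups. Ccn5, a matricellular protein that is known to hold back smooth muscle growth, rose by 2.72. Klhl24, which encodes an adaptor of a ubiquitin ligase for keratins, rose by 3.12, and St6gal1, a sialyltransferase of the Golgi, by 3.08. Serpinb9, an inhibitor of the protease granzyme B, rose by 2.53, Olah, a thioesterase that ends fatty acid synthesis early, by 3.06, and Sorbs2, an adaptor at actin stress fibres, by 2.71. Pdcd4, whose protein blocks the helicase eIF4A and is marked for breakdown by the mTORC1 target S6 kinase, was at 10.71, 10.74 and 10.76 in the DMSO arrays and 13.89, 13.79 and 13.70 in the rapamycin arrays. Its mRNA rose by 8.34-fold (log2 3.06, adjusted p = 2.26e-08 from limma).

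Among the falls, Myo7a (probe set TC0100006084.rn.2, chromosome 1), which encodes an unconventional myosin best known from the inner ear, came first. Its signal was 10.15, 10.21 and 10.38 in the DMSO arrays and 6.74, 6.71 and 7.28 in the rapamycin arrays, a decrease of 10.1-fold (log2 -3.33, standard error 0.17, adjusted p = 1.85e-07 from limma). Oasl, Hk2 and Psat1 followed and are described with their pathways further on. Hmox1, which encodes heme oxygenase 1, was bright in DMSO, at 15.36 ± 0.11 (SD, n = 3), and dropped to 12.81 ± 0.18, a change of -2.55. Tfrc, the transferrin receptor that brings iron into cells, was at 13.32, 13.16 and 13.16 in the DMSO arrays and 10.85, 10.87 and 11.12 in the rapamycin arrays. That is a 4.81-fold decrease, with the groups far apart (log2 -2.27, adjusted p = 1.85e-07 from limma). Slc11a2, the other importer of iron in the list, fell by 0.91 on the log2 scale. The vasopressin receptor gene Avpr1a changed by -2.49 and Maoa, the monoamine oxidase A of the outer mitochondrial membrane, by -2.31 from a signal of 15.49. Sntb1 (a syntrophin of the dystrophin complex), Osgin1 (an oxidative stress gene), Tlr5 (the receptor for flagellin), Anpep (aminopeptidase N) and Fabp5 (a carrier of fatty acids) changed by -2.49, -2.42, -2.24, -2.07 and -2.03. Csf1r, a receptor best known from macrophages, changed by -2.65 from 8.17, and Cd14 rose by 1.51 from 12.39, whereas the other 11 markers of macrophages and leukocytes were not called. Without ELT3 DMSO replicate 1 or rapamycin replicate 1, 2 markers were higher. The part of other cell types in these values was not tested.

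Genes of amino acid supply formed the list with the lowest median. The lists of pathway genes were written with earlier results of these data known, and their counts are descriptions. Of 45 measured targets of ATF4, the transcription factor of the amino acid response that mTORC1 also drives, 35 were lower and 1 higher, or 77.8% lower against 8.45% of all probe sets, with a median change of -1.07 against 0.02. All 13 measured cytosolic tRNA synthetase genes were lower, with changes from -1.76 (Cars1) to -0.70 (Lars1) on the log2 scale. Of 11 genes of amino acid and one-carbon synthesis 9 were lower, and of 8 amino acid transporters 6 were. Atf4 itself, whose control is largely at translation, changed by -0.50, short of the fold threshold.

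The serine pathway carried the largest falls of the list. Phgdh, Psat1 and Psph encode its 3 enzymes in order, from a glycolytic intermediate to serine. Psat1 stood at 13.51, 13.86 and 13.83 in the DMSO arrays and 11.12, 10.85 and 11.12 in the rapamycin arrays (log2 change -2.70, standard error 0.14, adjusted p = 1.89e-07 from limma). Phgdh was at 12.99, 12.80 and 12.81 in the DMSO arrays and 10.09, 10.40 and 10.35 in the rapamycin arrays, a change of -2.59, and Psph changed by -2.45. The mitochondrial folate enzymes that take carbon from serine were lower too, Shmt2 by -1.89, Mthfd2 by -1.60 and Mthfd1l by -1.74. Asns, which makes asparagine, fell by 1.64 on the log2 scale from a bright 16.24. Of the transporters, Slc7a11 (cystine) changed by -1.84, Slc1a5 (glutamine and neutral amino acids) by -1.72 and Slc7a5 (large neutral amino acids) by -1.34, while the glutamine transporter Slc38a2 was not called, at 0.55. The stress genes Trib3, Chac1, Sesn2 and Ddit3 changed by -1.65, -1.59, -1.51 and -1.14. The lone member that rose was Vldlr, a lipoprotein receptor, at 0.81.

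The promoters of these genes are shown because so many of them carry the same letters. ATF4 binds with C/EBP proteins to a composite element, searched here as TTGCATCA on either strand, a spelling chosen with these results known. In RefSeq promoters of the GRCr8 assembly, from 250 bases before to 50 after the annotated start that the table uses for each gene, it was present in 7 of the 12 tRNA synthetase genes that had a promoter in the table, and in 12 of 41 genes of the whole list (29.3%), against 0.743% of all 27457 promoters. Of those 12 genes 10 were lower and the other two were not called. A match is a description of the letters and shows no binding. The shares of promoters, here and for the motifs further on, reflect which genes were put in a list and are no result of the arrays. Below, the match is in capitals and each window is written 5′ to 3′ on the strand of the gene.
Aars1 (GRCr8, chr19:55908334-55908413, + strand): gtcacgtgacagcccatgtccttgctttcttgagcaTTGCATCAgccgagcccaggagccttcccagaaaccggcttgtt
Cars1 (GRCr8, chr1:208225320-208225388, - strand): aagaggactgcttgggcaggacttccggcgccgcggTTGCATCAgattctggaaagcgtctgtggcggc
Iars1 (GRCr8, chr17:15193633-15193712, - strand): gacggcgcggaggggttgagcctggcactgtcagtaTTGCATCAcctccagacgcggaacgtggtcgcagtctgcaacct
Mars1 (GRCr8, chr7:65023727-65023806, - strand): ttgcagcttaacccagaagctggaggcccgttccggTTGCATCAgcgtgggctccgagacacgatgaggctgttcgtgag
Nars1 (GRCr8, chr18:60275753-60275832, - strand): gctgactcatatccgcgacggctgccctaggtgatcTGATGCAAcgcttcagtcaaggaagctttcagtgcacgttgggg
Tars1 (GRCr8, chr2:62114786-62114865, - strand): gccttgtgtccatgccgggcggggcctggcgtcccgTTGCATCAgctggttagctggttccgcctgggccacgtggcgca
Yars1 (GRCr8, chr5:146820165-146820212, + strand): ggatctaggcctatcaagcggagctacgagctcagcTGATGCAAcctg
Chac1 (GRCr8, chr3:126795928-126796007, + strand): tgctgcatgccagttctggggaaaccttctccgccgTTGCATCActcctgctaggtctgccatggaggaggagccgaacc
In 6 of these 7 synthetase genes the first base of the match lay between 27 bases before and 39 after the start, and in Aars1 it lay 112 bases before it. Cars1, the synthetase for cysteine, was at 11.39, 11.40 and 11.40 in the DMSO arrays and 10.03, 9.77 and 9.11 in the rapamycin arrays, which is 3.38-fold lower (log2 -1.76, standard error 0.22, adjusted p = 0.000107 from limma). Rapamycin replicate 3 was the lowest of its group. Yars1, for tyrosine, changed by -1.69, Nars1, for asparagine, by -1.44, Aars1, for alanine, by -1.33, and Tars1, for threonine, by -1.26.

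The genes of sterol and fatty acid synthesis were lower as well. Of 36 measured genes 22 were lower and 0 higher (2 at an unadjusted p under 0.05), which is 61.1% lower, with a median of -0.77. The highest member, the phosphatase gene Lpin1, was at 0.42 and not called. Among the sterol enzymes 13 of 17 were lower. Mvd, which makes isopentenyl diphosphate, changed by -1.79, Acat2, at the head of the pathway, by -1.42, Lss, which closes the sterol rings, by -1.14 and Sqle, the squalene epoxidase, by -1.09. Among the fatty acid enzymes, 6 of 11 were lower. Scd, the desaturase that makes oleate, was at 11.19, 11.29 and 11.16 in the DMSO arrays and 9.19, 9.16 and 8.90 in the rapamycin arrays, a 4.38-fold decrease (log2 -2.13, adjusted p = 3.16e-07 from limma). Fasn, the fatty acid synthase, changed by -1.50 and Acaca, which makes its substrate, by -1.25. The desaturase gene Fads1 was not called, at -0.43. Of the regulators, Srebf1 was at 9.14, 8.95 and 9.28 in the DMSO arrays and 7.87, 7.82 and 7.63 in the rapamycin arrays, a change of -1.35 (adjusted p = 9.68e-05 from limma), and Insig1, a target and brake of the SREBP proteins, changed by -0.91. Srebf2, which encodes the family member that governs sterol genes, was at 0.33 and not called. The element searched as TCACNCCAC, the letters of a sterol regulatory site, was in 0 of 29 promoters of this list and in 1.13% of all promoters, which says only that these letters were not in these windows. Scd and Scd2 (log2 -1.06) are close in sequence, as are the actin genes and the Oas genes named further on, and the array may not keep them apart.

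In glycolysis the entry steps and the exit of lactate changed most. Of 38 genes of glycolysis and hypoxia 16 were lower and 5 higher (42.1% and 13.2%, against 8.45% and 7.47% of all probe sets), with a median of -0.45. Hk2, the hexokinase of growing cells, was at 9.43, 9.44 and 9.99 in the DMSO arrays and 6.82, 7.19 and 6.12 in the rapamycin arrays. This is a fall of 7.51-fold (log2 -2.91, standard error 0.29, adjusted p = 2.16e-05 from limma). The rapamycin arrays spread over more than 1 unit without reaching the DMSO arrays. The glucose transporter gene Slc2a1 changed by -1.67, and those of the lactate carriers, Slc16a3 and Slc16a1, by -2.39 and -1.75. Pfkl (phosphofructokinase) changed by -1.44, Tpi1 by -1.35, Eno2 by -1.32 and Ldha (lactate dehydrogenase) by -0.70, whereas Gapdh was not called, at -0.19. Hif1a, which encodes the oxygen-regulated subunit of HIF1, fell by 0.68 on the log2 scale (adjusted p = 0.000542 from limma). Its textbook targets went both ways. Vegfa, the vascular growth factor, was at -0.34 and not called, and Ero1a, an oxidase of the endoplasmic reticulum, was lower (-1.0). Adm (adrenomedullin), Bnip3l (a receptor for the removal of mitochondria), Egln3 (a prolyl hydroxylase) and Slc2a3 (another glucose transporter) rose, by 1.45, 1.28, 1.25 and 1.10. Of 5 genes of the pentose phosphate pathway 3 were lower and 0 higher (0 at an unadjusted p under 0.05), Tkt (transketolase) by -0.71.

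Building blocks of nucleic acids and of ribosomes went the same way. Of 16 genes of purine and pyrimidine synthesis 8 were lower and 0 higher (0 at an unadjusted p under 0.05), and 2 of the lower ones encode the enzymes that make the shared ribose substrate, Prps2 (-1.71) and Prps1 (-0.97). Ppat, the first committed enzyme of purine synthesis, changed by -1.41, and Cad, the enzyme that opens pyrimidine synthesis and is a substrate of S6 kinase, by -0.92. Of 40 genes of ribosome biogenesis, 29 were lower and 0 higher (0 at an unadjusted p under 0.05), or 72.5% lower with a median of -0.85. Dkc1, the pseudouridine synthase dyskerin, was at 13.21, 13.21 and 13.54 in the DMSO arrays and 11.60, 11.61 and 11.07 in the rapamycin arrays (log2 change -1.90, standard error 0.18, adjusted p = 1.32e-05 from limma). Rapamycin replicate 3 was again the lowest array. Nop2, a nucleolar RNA methyltransferase, was at 13.77, 14.09 and 14.01 in the DMSO arrays and 12.58, 12.32 and 11.84 in the rapamycin arrays and changed by -1.71. Gnl3 changed by -1.38, Nolc1 by -1.33, Nop56 by -1.11 and Fbl, the methyltransferase fibrillarin, by -1.05. Among the polymerase genes, Polr3g, a subunit of RNA polymerase III, changed by -1.27 and Polr1b, of RNA polymerase I, by -1.09, while Ubtf, a factor of ribosomal DNA transcription, was not called, at 0.22. Of 21 translation factors 7 were lower and 1 higher (33.3% and 4.8%, against 8.45% and 7.47% of all probe sets). Eif4ebp2, which encodes an inhibitor of eIF4E that mTORC1 phosphorylates, changed by -1.54 and Eif4e, the cap-binding protein, by -0.85, and Eif3f rose by 0.98. Without rapamycin replicate 3, 28 genes of ribosome biogenesis and 5 translation factors were lower.

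MYC and the MiT/TFE proteins share the E-box CACGTG, which reads the same on both strands. It was in 11 of 37 promoters of ribosome biogenesis genes (29.7%) and in 11 of 47 promoters of lysosome genes (23.4%), against 6.65% of all promoters. Of the 11 ribosome biogenesis genes 10 were lower, and of the 11 lysosome genes 4 were higher and 1 was lower. Windows of 2 genes that fell and 1 that rose are given with the E-box in capitals.
Dkc1 (GRCr8, chrX:157751431-157751508, + strand): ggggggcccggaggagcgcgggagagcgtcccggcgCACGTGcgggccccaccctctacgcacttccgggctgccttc
Nop2 (GRCr8, chr4:159618968-159619015, + strand): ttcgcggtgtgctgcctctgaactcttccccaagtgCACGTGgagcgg
Glb1 (GRCr8, chr8:122963582-122963659, + strand): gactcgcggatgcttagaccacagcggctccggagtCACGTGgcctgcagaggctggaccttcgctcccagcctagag
Myc itself was higher in rapamycin, at 12.44, 12.54 and 12.80 in the DMSO arrays and 13.62, 13.50 and 13.39 in the rapamycin arrays (log2 0.91, adjusted p = 0.000457 from limma). By RT-qPCR, at the same stated dose and time, the paper found no effect of rapamycin on Myc in ELT3.

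The genes of DNA replication and of mitosis were lower by similar amounts. Of 41 replication genes 27 were lower, 65.9% with a median of -0.73, and of 36 mitosis genes 26 were, 72.2% with a median of -0.72. In either list 0 genes were higher, also at an unadjusted p under 0.05 (0). Without rapamycin replicate 3 the counts were 25 and 22. Among the licensing factors, Orc1, the largest subunit of the origin recognition complex, was at 9.59, 9.44 and 9.72 in the DMSO arrays and 8.16, 7.71 and 7.76 in the rapamycin arrays, a 3.27-fold decrease (log2 -1.71, adjusted p = 4.74e-06 from limma). Cdt1, which loads the helicase, was at 9.60, 9.89 and 10.13 in the DMSO arrays and 8.57, 8.13 and 8.18 in the rapamycin arrays, a change of -1.58, and its partner Cdc6 changed by -1.04. Of the polymerase and clamp genes, Pold2 changed by -1.43, Rfc5, of the clamp loader, by -1.10 and Pcna, the clamp, by -0.76. Tk1 and Rrm2, which supply nucleotides for DNA, changed by -1.0 and -0.73. In mitosis, Cdc20, the activator of the anaphase-promoting complex, had the largest change. It was at 12.61, 12.64 and 12.61 in the DMSO arrays and 11.27, 11.05 and 10.44 in the rapamycin arrays, with replicate 3 lowest, a change of -1.70 (adjusted p = 2.88e-05 from limma). The phosphatase gene Cdc25b changed by -1.29, the kinase gene Aurka by -1.23, Ccna2 (cyclin A2) by -1.14, Ccnb1 (cyclin B1) by -1.03 and Foxm1, a transcription factor of the mitotic genes, by -0.91.

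The D cyclins and the inhibitors gave a divided picture, with 3 of 18 genes higher and 5 lower (16.7% and 27.8%, against 7.47% and 8.45% of all probe sets). Ccnd1 was at 13.13, 13.22 and 13.19 in the DMSO arrays and 13.41, 13.56 and 13.48 in the rapamycin arrays, a change of 0.30 that was not called, and Ccnd2, dim in these cells at 5.80, was at 0.31. Ccnd3 fell by 0.61 on the log2 scale, close to the threshold, and fell short of it at -0.58 when ELT3 DMSO replicate 2 was left out and at -0.56 when rapamycin replicate 1 was. Cdk2, the partner of the E and A cyclins, changed by -1.11. Ccng2, an unusual cyclin found in resting cells, rose by 1.68, the antiproliferative gene Btg1 by 1.18 and Cdkn2b, which encodes the inhibitor p15, by 0.95. Cdkn1a (p21) and Cdkn1b (p27) were not called, at 0.14 and 0.29. E2f1, dim at 6.76, was at -0.18 and not called.

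The E2F factors switch on the replication genes at the start of S phase, and their site was searched as TTCCCGC or TTGGCGC on either strand, again with these results known. A match was found in 18 of 34 promoters of replication genes (52.9%) and in 4 of 29 of mitosis genes (13.8%), against 6.67% of all promoters. Of the 18 replication genes, 15 were lower and the other three were not called. Windows are given for 4 genes of different steps, licensing (Cdt1), its kinase (Cdc7, log2 change -1.18), histone deposition (Chaf1b, -1.31) and nucleotide supply (Rrm1, -0.71), with the matches in capitals.
Cdt1 (GRCr8, chr19:67529246-67529298, + strand): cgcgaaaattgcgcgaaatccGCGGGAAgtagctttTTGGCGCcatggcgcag
Cdc7 (GRCr8, chr14:2969607-2969679, - strand): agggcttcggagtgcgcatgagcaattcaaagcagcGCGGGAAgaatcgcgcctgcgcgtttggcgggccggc
Chaf1b (GRCr8, chr11:46670617-46670695, + strand): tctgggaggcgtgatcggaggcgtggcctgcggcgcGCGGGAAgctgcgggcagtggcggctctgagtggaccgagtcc
Rrm1 (GRCr8, chr1:166235880-166235953, + strand): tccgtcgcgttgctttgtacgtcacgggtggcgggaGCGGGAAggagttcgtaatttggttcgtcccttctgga

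**Figure D2:**
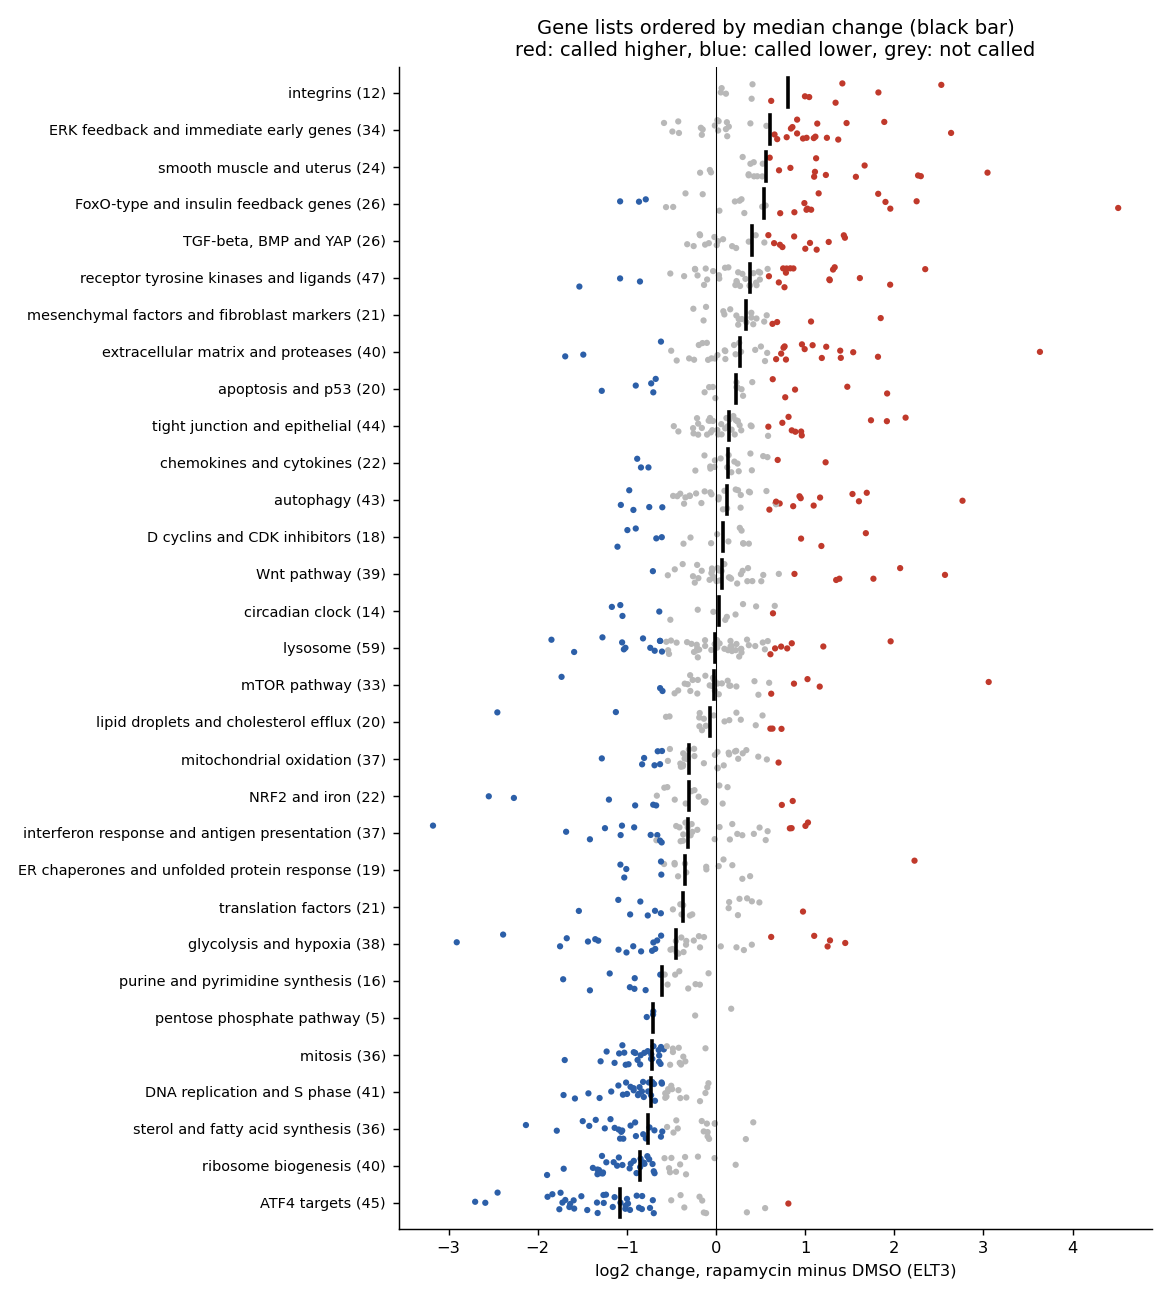
Each row is a gene list, with the number of measured genes in brackets, and each point a gene at its log2 change, rapamycin minus DMSO in ELT3. The black bar is the median of the list, and the rows run from ATF4 targets at the bottom (-1.07) to integrins at the top (0.81). Red and blue mark genes called higher and lower.

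Autophagy genes rose in part, and lysosome genes were called both ways. Of 28 genes of the core autophagy machinery 10 were higher and 1, Atg4c, was lower (-0.97). These are 35.7% and 3.6%, against 7.47% and 8.45% of all probe sets. Wipi1, whose protein marks the growing autophagosome, was at 11.50, 11.56 and 11.69 in the DMSO arrays and 13.33, 13.30 and 13.20 in the rapamycin arrays, a 3.23-fold rise (log2 1.69, adjusted p = 5.3e-07 from limma). Map1lc3a, an LC3 gene, rose by 1.60, and the subunits of the initiating kinase complex that mTORC1 holds down rose by 1.53 (Atg13), 1.17 (Ulk2), 1.10 (Rb1cc1) and 0.94 (Ulk1). Of the receptors for cargo, Calcoco1 was at 7.43, 7.18 and 7.92 in the DMSO arrays and 10.47, 10.42 and 9.94 in the rapamycin arrays, a rise of 2.77, and Nbr1 rose by 0.87. Of 29 lysosomal enzymes 6 were higher (20.7%) and 1 lower (3.4%), with Ctsf (cathepsin F) at 1.96, Glb1 (β-galactosidase) at 1.20 and Fuca1 (α-fucosidase) at 0.85, against Neu1 (sialidase) at -1.05. The proton pump ran the other way. Of 15 V-ATPase genes 7 were lower (46.7%) and 0 higher (1 at an unadjusted p under 0.05), Atp6v0b by -1.85 and Atp6v1d by -1.03. Of 15 membrane proteins 4 were lower (26.7%) and 1 higher (6.7%, near the share of all probe sets). Among them Npc1, the cholesterol exporter, was at -1.59 and Ctns, the cystine exporter, at -1.27. Gpnmb, a glycoprotein used as a marker of Tsc2-null tumours, was not called, at 0.35. Tfeb and Tfe3, which encode transcription factors of the lysosome, were not called, at -0.13 and -0.48, and Tfe3 was called without ELT3 DMSO replicate 1 (-0.65). Their feedback genes Flcn (folliculin) and Fnip2 (its partner) changed by -0.93 and -1.07.

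Of 33 genes of the mTOR pathway itself 5 were higher and 3 lower, the latter 1 without rapamycin replicate 3. These are 15.2% and 9.1%, against 7.47% and 8.45% of all probe sets, so that the share lower lay near that of all probe sets. Pdcd4, described above, was the highest member. Tsc2 was at 9.46, 9.64 and 9.51 in the DMSO arrays and 10.71, 10.25 and 10.73 in the rapamycin arrays and rose by 1.03 (adjusted p = 0.00155 from limma). The files do not say which part of Tsc2 the probes lie in, so that this signal says nothing of the null allele. Mtor was at -0.04, Rptor, the scaffold of mTORC1, at 0.23 and Fkbp1a, which encodes FKBP12, at -0.21, all not called. Fkbp4, an immunophilin that works with the chaperone HSP90, changed by -1.73. Sesn3, an inhibitor upstream of mTORC1, rose by 1.16 and Maf1, the repressor of RNA polymerase III that mTORC1 inactivates, by 0.87.

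In the insulin and growth factor lists, more genes were higher than lower. Of 26 genes of FoxO and insulin feedback 12 were higher and 3 lower (46.2% higher, against 7.47% of all probe sets, median 0.54). Irs1 and Irs2 encode the adaptors of the insulin and IGF1 receptors that S6 kinase holds down. Irs1 was at 7.11, 7.13 and 7.01 in the DMSO arrays and 9.16, 8.78 and 9.0 in the rapamycin arrays and Irs2 at 9.39, 9.33 and 9.53 in the DMSO arrays and 11.31, 11.40 and 11.39 in the rapamycin arrays. The rise was 3.74-fold for Irs1 (log2 1.90, adjusted p = 7.29e-07 from limma) and 3.88-fold for Irs2 (log2 1.96, adjusted p = 2.79e-07 from limma). Igf1r, the IGF1 receptor gene, was at 10.54, 10.62 and 10.87 in the DMSO arrays and 13.20, 12.71 and 12.88 in the rapamycin arrays, a rise of 2.25, while Insr, the insulin receptor gene, was not called at 0.52 and was called without ELT3 rapamycin replicate 3 (0.68). Txnip, which limits glucose uptake, rose by 1.82 and the repressor gene Bcl6 by 1.07. Trim63 and Klf15, which are paired with Fbxo32 in muscle atrophy, went the other way, at -1.08 and -0.86. Of 47 receptor tyrosine kinase, ligand and IGF-binding genes 15 were higher and 3 lower, and of the 6 IGF-binding proteins 5 were higher. Pdgfra, the receptor α for platelet-derived growth factor, was at 8.80, 8.95 and 8.77 in the DMSO arrays and 10.39, 10.09 and 9.99 in the rapamycin arrays and rose by 1.31, and Pdgfrb was not called, at 0.58. It lay on the fold threshold and was called without ELT3 DMSO replicate 2 (0.60), DMSO replicate 3 (0.60) or rapamycin replicate 3 (0.62). Egfr was dim, at 5.71, and not called (0.45). The EGF receptor ligand Hbegf rose by 2.35, Fgf7 by 1.95 and Fgf2 by 1.33, whereas Pdgfc changed by -1.53 and Vegfb by -1.08.

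Most feedback genes of the ERK pathway rose, 8 of 12. Of 34 genes with the immediate early ones 17 were higher and 0 lower (4 at an unadjusted p under 0.05), which is 50% higher with a median of 0.61. Dusp6, the phosphatase of ERK, was at 12.35, 12.37 and 12.60 in the DMSO arrays and 15.02, 15.20 and 15.02 in the rapamycin arrays, a 6.22-fold rise (log2 2.64, adjusted p = 9.34e-08 from limma). Dusp1, Dusp4, Spry2 and Etv5 rose by 1.24, 1.12, 1.10 and 1.02. Of the immediate early genes, Klf2 rose by 1.89, Nr4a1 by 1.47, Junb by 1.37 and Egr1 by 0.98, and Fos, dim at 5.78, was not called (-0.17). Without DMSO replicate 2, rapamycin replicate 2 or rapamycin replicate 3, 1 gene of the list was lower.

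Of the contractile genes, which define a smooth muscle cell, most rose. Of 16 genes 10 were higher and 0 lower (0 at an unadjusted p under 0.05), with a median of 0.97. Synpo2, a protein of actin bundles and the Z-disc, was at 8.18, 8.65 and 8.59 in the DMSO arrays and 11.29, 11.53 and 11.73 in the rapamycin arrays, a rise of 3.05 (adjusted p = 1.78e-07 from limma). Acta2 was at 15.21, 14.99 and 15.06 in the DMSO arrays and 16.52, 16.64 and 16.82 in the rapamycin arrays and rose by 2.97-fold (log2 1.57, adjusted p = 1.45e-06 from limma). The other actins, Actg2 of visceral muscle and Acta1 of skeletal muscle, rose by 2.30 and 3.17. Myl9, a light chain of myosin, rose by 2.27, Tagln by 1.67, Flna (filamin A) by 1.12 and Cald1 (caldesmon) by 1.11, while the dim Myh11 and Cnn1 were not called, at -0.18 and 0.37. Gata6, a transcription factor of smooth muscle, rose by 1.23. The steroid receptor genes Esr1 and Pgr were not called, at 0.43 and 0.52. Esr1 was called without ELT3 DMSO replicate 1 (0.59) and Pgr without DMSO replicate 3 (0.60).

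Among the adhesion genes, 7 of 12 integrins were higher and 0 lower (0 at an unadjusted p under 0.05), with a median of 0.81. Itga8, the α8 chain of smooth muscle, was at 9.57, 9.52 and 9.60 in the DMSO arrays and 12.13, 12.25 and 11.89 in the rapamycin arrays, a rise of 2.53 (adjusted p = 6.03e-07 from limma), and Itga7, Itgb5 and Itga1 rose by 1.82, 1.42 and 1.34. Of 40 matrix and protease genes 15 were higher and 3 lower (37.5% and 7.5%, against 7.47% and 8.45% of all probe sets). The share lower lay near that of all probe sets. Has2, which makes hyaluronan, rose by 1.82, Col4a1 and Nid2, of the basement membrane, by 1.40 and 1.39, and the metalloprotease Mmp11 by 1.54. Tnc (tenascin C) and Timp3, an inhibitor of metalloproteases, were lower, at -1.69 and -1.49. Of 44 junction and epithelial genes 10 were higher (22.7%) and 0 lower (2 at an unadjusted p under 0.05), with 1 lower without rapamycin replicate 1. Krt8, the keratin of simple epithelia, was at 9.72, 9.35 and 9.71 in the DMSO arrays and 11.88, 11.73 and 11.55 in the rapamycin arrays and rose by 2.13, whereas its partner Krt18 stayed dim. F11r (JAM-A) rose by 1.92, Ocln (occludin) by 1.74, Tjp1 (ZO-1) by 0.96 and Cldn1 (claudin 1) by 0.74. For Ocln in ELT3 the paper describes only a marginal effect of rapamycin by RT-qPCR. Mesenchymal and fibroblast genes were also higher where they were called, 4 of 21 with 0 lower (1 at an unadjusted p under 0.05), among them Postn (periostin) at 1.85 and Fn1 (fibronectin) at 1.07.

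In the Wnt list 6 of 39 genes were higher and 1 was lower, 15.4% and 2.6% against 7.47% and 8.45% of all probe sets, and 2 were lower without DMSO replicate 1 or rapamycin replicate 3. Lef1, a transcription factor at which β-catenin acts, was at 8.79, 9.21 and 8.80 in the DMSO arrays and 11.62, 11.43 and 11.44 in the rapamycin arrays, a 5.93-fold rise (log2 2.57, adjusted p = 2.16e-06 from limma). The secreted antagonist Sfrp4 rose by 2.07, the related Dkk3 by 1.77 and the receptor genes Fzd1 and Fzd7 by 1.38 and 1.35, whereas Sfrp2 changed by -0.71. Axin2, the usual readout of the pathway, was not called, at 0.41. Of 26 genes of TGF-β, BMP and YAP 11 were higher and 0 lower (0 at an unadjusted p under 0.05), Ccn1 by 1.45, Inhba (the activin A subunit) by 1.43 and Smad3 by 1.26.

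In the interferon list the largest changes were falls. Of 37 genes of the interferon response and antigen presentation 11 were lower and 4 higher, with a median of -0.32. These are 29.7% and 10.8%, against 8.45% and 7.47% of all probe sets. The count lower was 8 without DMSO replicate 2, DMSO replicate 3 or rapamycin replicate 1, and 8 with the 6 ELT3 arrays alone. Among the 37 genes, 16 lay below the median signal. Oasl, an interferon-induced relative of the oligoadenylate synthetases, was at 11.19, 11.34 and 11.24 in the DMSO arrays and 8.50, 7.75 and 7.99 in the rapamycin arrays, a 9.03-fold decrease (log2 -3.18, standard error 0.20, adjusted p = 6.65e-07 from limma). Usp18, which removes ISG15 from proteins, changed by -1.68, Ifit3 by -1.25, Rsad2 (viperin) by -1.07 and Stat2, part of the factor that reads interferon, by -1.05. Cxcl10 was bright, at 14.30, and fell by 0.66 on the log2 scale, short of the call without ELT3 rapamycin replicate 1 (log2 -0.57). Gbp2 and Parp9 rose, by 1.0 and 1.03, as did B2m, the light chain of class I molecules, by 0.83. Oas1k, outside the list, rose by 2.70, from 8.24, 8.31 and 8.26 in the DMSO arrays and 10.84, 11.02 and 11.06 in the rapamycin arrays. Of the chemokines, Ccl2 and Cxcl1 were lower, at -0.88 and -0.76, and Cxcl16 rose by 1.23.

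The interferon-stimulated response element, searched as TTTC, any 2 bases and TTTC on either strand, was in 19 of 32 promoters of this list (59.4%), against 3.77% of all promoters. The list was written as one of interferon genes, so this excess describes the list and not the response to rapamycin. Of these 19 genes 6 were lower, 3 higher and 10 not called. Windows of 3 genes that were lower are given with the match in capitals.
Rsad2 (GRCr8, chr6:48788222-48788303, - strand): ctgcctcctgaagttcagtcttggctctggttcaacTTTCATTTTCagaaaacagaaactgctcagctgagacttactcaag
Ifit3 (GRCr8, chr1:241527246-241527327, + strand): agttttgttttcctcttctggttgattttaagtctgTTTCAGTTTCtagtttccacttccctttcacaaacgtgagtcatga
Cxcl10 (GRCr8, chr14:15988816-15988868, + strand): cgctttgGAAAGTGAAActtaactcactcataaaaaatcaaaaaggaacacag

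The remaining lists held fewer called genes or moved both ways, and their shares stand against 7.47% higher and 8.45% lower of all probe sets. In apoptosis and p53, 5 of 20 genes were higher and 5 lower (25% each), with Bcl2, which protects from cell death, at 1.92 and Tp53inp1 at 1.47, against Bid at -1.28 and Ccng1 at -0.90. In the list of NRF2 targets and iron 6 of 22 were lower and 2 higher (1 without DMSO replicate 1, DMSO replicate 3 or rapamycin replicate 2), and beside Hmox1 and Tfrc the sulfiredoxin gene Srxn1 changed by -1.20. Of 19 chaperone genes of the endoplasmic reticulum 5 were lower (3 without DMSO replicate 3), Hyou1 by -1.07 and Creld2 by -1.03, and the 1 that was higher, Crebrf, a regulator of the unfolded protein response, rose by 2.23. In mitochondrial oxidation 7 of 37 were lower (18.9%, against 8.45% of all probe sets, and 4 without DMSO replicate 2) and 1, Cpt2 of the carnitine shuttle, was higher, with 2 higher without DMSO replicate 2 or DMSO replicate 3. Uqcrc1, of complex III, had the largest fall among them (-1.28). Cpt2 was at 0.70, and not called without rapamycin replicate 3 (0.55). Of 14 clock genes 4 were lower and 1 higher (2 without rapamycin replicate 2), with Bhlhe40 at -1.17 and Cry1 at -1.07. In the list of lipid droplets and cholesterol efflux, 2 of 20 were lower (4 without rapamycin replicate 1) and 3 higher, shares of 10% and 15% of which the former lay near that of all probe sets. Fabp3, which carries fatty acids, had the largest change (-2.45).

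**Figure D3:**
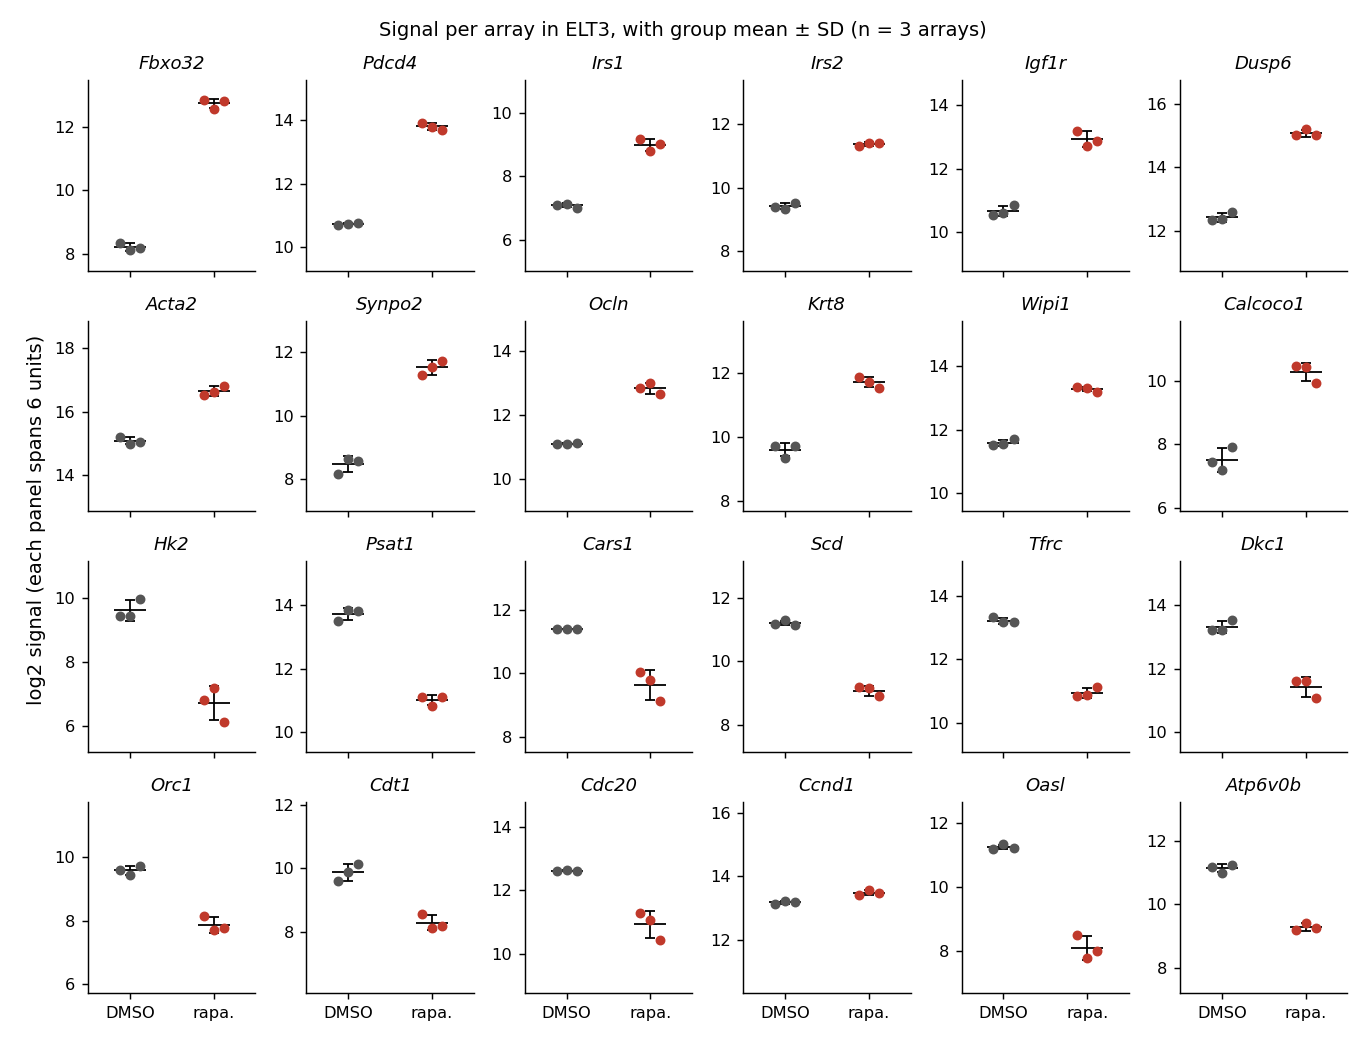
Each panel gives the log2 signal of 1 gene on the y axis for the 3 DMSO arrays (grey) and the 3 rapamycin arrays (red) of ELT3, with the group mean and its SD. The panels span the same range of 6 units, each centred on its own gene. Distances between the groups therefore compare between panels, and heights do not. The groups stay apart in all of them. The separation is smallest for Ccnd1 (log2 change 0.30, not called) and largest for Fbxo32 (4.51).

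The response was then set against that of ELT3-245, the line labelled as rapamycin-resistant, each measured against its own DMSO arrays. In ELT3-245, 2465 probe sets were called with rapamycin (10.6%), 1310 higher (5.65%) and 1155 lower (4.98%). Of the 1732 that were higher in ELT3, 766 were also called higher in ELT3-245 (44.2% of the ELT3 calls and 58.5% of those of ELT3-245) and 23 lower. Of the 1960 that were lower, 653 were also lower (33.3% and 56.5%) and 7 higher. A call in ELT3 alone does not show a difference, and the difference of the responses was therefore tested. It was called for 981 probe sets (4.23%), 478 higher in ELT3 (2.06%) and 503 lower (2.17%). Both counts were lower whichever 1 of the 12 arrays was left out, at no more than 409 higher and 486 lower in ELT3. The lowest counts follow. Those higher in ELT3 numbered 284 without ELT3 DMSO replicate 2 and 292, 305 and 308 without ELT3-245 DMSO replicate 1, rapamycin replicate 1 and rapamycin replicate 2. Those lower numbered 250 and 318 without ELT3 DMSO replicates 2 and 3, 276 and 280 without ELT3-245 DMSO replicates 1 and 3, and 278, 260 and 335 without its rapamycin replicates 1, 2 and 3. Of the 943 that were higher in ELT3 and not called in ELT3-245, the difference was called for 208, and of the 1300 that were lower and not called there, for 280.

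In the list of DNA replication the difference was called for 13 of 41 genes, all lower in ELT3 (31.7%, against 2.17% of all probe sets). Without 1 array this count was 9, 6 and 7 (ELT3 DMSO replicates 1, 2 and 3), 13, 8 and 8 (ELT3 rapamycin), 5, 7 and 10 (ELT3-245 DMSO) and 6, 4 and 9 (ELT3-245 rapamycin). In ELT3-245 itself 2 genes of the list were lower and 0 higher, with a median of -0.17. Orc1 changed by -1.71 in ELT3 and -0.55 in ELT3-245 (difference -1.16, adjusted p = 0.00825 from limma), Pold2 by -1.43 and -0.07 (difference -1.36, adjusted p = 0.00321) and Fen1, the flap endonuclease, by -0.92 and 0.0 (difference -0.92, adjusted p = 0.0109). For mitosis the difference was called for 4 of 36, and for 0 to 4 without 1 array, with 0 without ELT3 DMSO replicates 1 or 2, ELT3-245 DMSO replicate 3 or its rapamycin replicate 1. Cdc20 fell in both lines, at -1.70 and -0.98. Ccnd1 rose in ELT3-245 by 0.97, and the difference of -0.67 was called (adjusted p = 0.0166 from limma). In ribosome biogenesis it was called for 9 of 40, all lower in ELT3, and for 4, 4 and 4 (ELT3 DMSO replicates 1, 2 and 3), 6, 8 and 7 (ELT3 rapamycin), 4, 4 and 3 (ELT3-245 DMSO) and 5, 3 and 4 (ELT3-245 rapamycin) without 1 array. Nop2 changed by -1.71 in ELT3 and -0.18 in ELT3-245 (difference -1.53, adjusted p = 0.005 from limma) and Nop56, a core protein of small nucleolar particles, by -1.11 and -0.11 (difference -1.0).

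In the ATF4 list 9 of 45 genes had a called difference with the change lower in ELT3 (5 without ELT3 DMSO replicate 2), and 4 of them were amino acid transporters. Slc1a5 changed by -1.72 in ELT3 and -0.45 in ELT3-245 (difference -1.28, adjusted p = 0.00469 from limma), and Slc7a5 by -1.34 and -0.36 (difference -0.98, adjusted p = 0.00801 from limma). For none of the 13 tRNA synthetases was the difference called, and 10 of them were lower in ELT3-245 too. Of the sterol and fatty acid genes, 22 of 36 were lower in ELT3 and 23 in ELT3-245, and the difference was called for 1, the sterol reductase gene Tm7sf2 (-0.01 and -1.07), which was named after its values were seen and is not called without any of 7 of the 12 arrays. Of the 59 lysosome genes, 12 were lower in ELT3 and 20 in ELT3-245. The difference was called for 6 of them with the ELT3 change higher and for 1 with it lower. Irs1 rose by 1.90 in ELT3 and 0.69 in ELT3-245 (difference 1.21, adjusted p = 0.00285 from limma). Gpnmb was at 0.35 in ELT3 and fell in ELT3-245, at -0.88, with a difference of 1.23. Fbxo32 had a difference of 2.35 (adjusted p = 0.000161 from limma), with a rise of 2.17 in ELT3-245. Dusp6 rose by 2.63 there, a difference of 0.01 that was not called (adjusted p = 0.989 from limma).

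**Figure D4:**
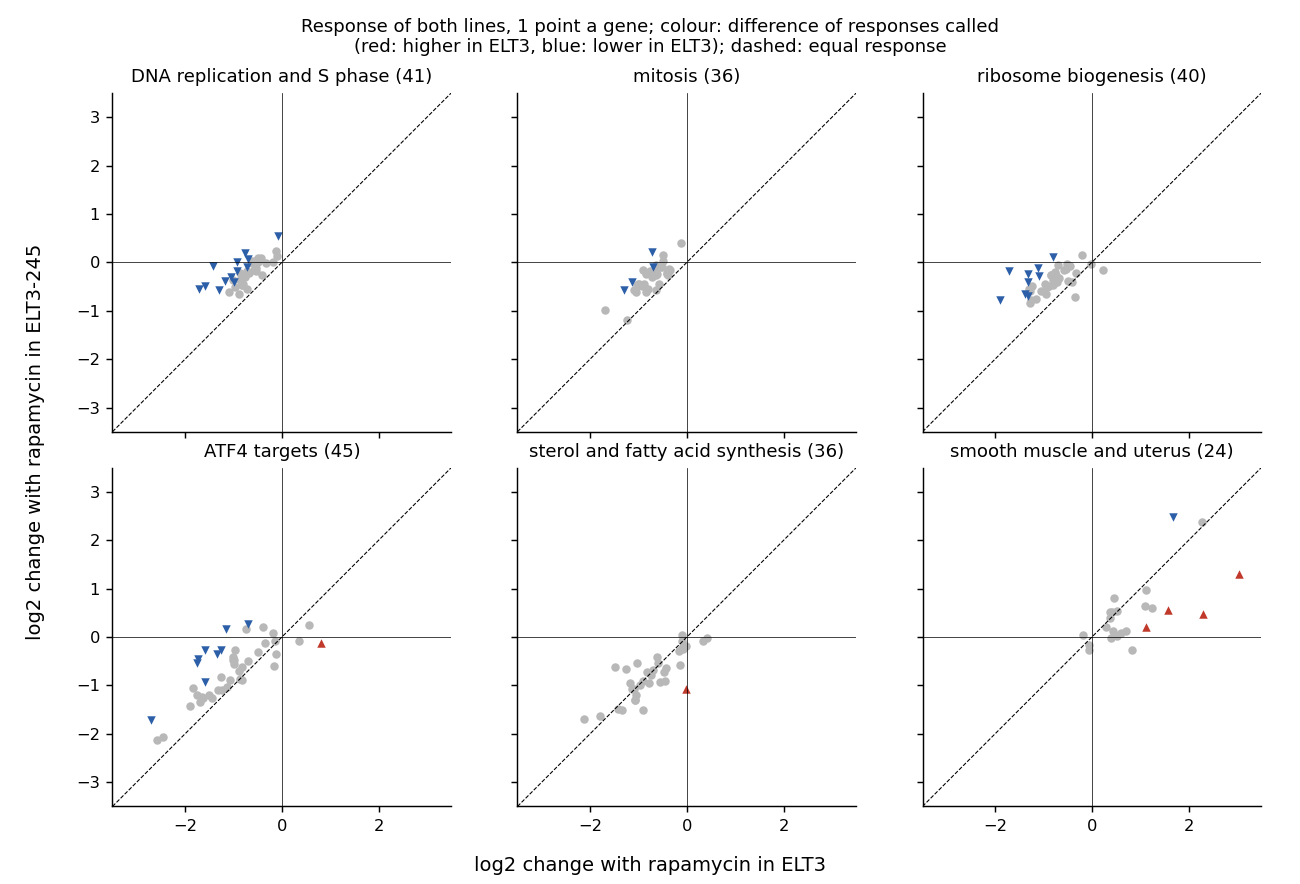
Each point is a gene, with its log2 change with rapamycin in ELT3 on the x axis and in ELT3-245 on the y axis, in panels for 6 gene lists. The dashed line marks an equal response, and coloured triangles mark genes whose difference of responses was called, red where the change was higher in ELT3 and blue where it was lower. In DNA replication 13 of 41 genes are blue, and in sterol and fatty acid synthesis 1 of 36 is coloured.

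Of the contractile genes, Actg2 was at 2.30 in ELT3 and 0.48 in ELT3-245 (difference 1.82, adjusted p = 0.000852 from limma) and Acta2 at 1.57 and 0.55 (difference 1.02), while Tagln ran the other way (difference -0.81). Krt8 and Ocln rose in ELT3 alone by the call, and their differences were called, at 1.79 and 2.0. Prr15 had the largest difference of the 10 genes with the largest rises among those whose difference was called. It was at 5.49, 4.81 and 5.21 in the DMSO arrays and 8.70, 8.48 and 7.74 in the rapamycin arrays in ELT3 and changed by 0.05 in ELT3-245 (difference 3.09, adjusted p = 0.000338 from limma). In ELT3-245 the mean signal of Prr15 was 4.16 in DMSO and 4.21 in rapamycin, both below the array median. A flat value so dim does not show that a response was absent. Oasl changed by -3.18 in ELT3 and -0.60 in ELT3-245 (difference -2.58), and Avpr1a by -2.49 and -0.10 (difference -2.39). The lines also differed in DMSO, where Oasl was at 11.26 in ELT3 and 7.71 in ELT3-245, and Avpr1a at 11.6 and 14.35. How far such a start sets the size of a response was not tested. In 30 probe sets, 25 of them named, the calls were opposite in the lines. Pdgfc fell in ELT3, at 9.30, 9.35 and 9.42 in the DMSO arrays and 7.85, 7.92 and 7.71 in the rapamycin arrays, and rose by 0.73 in ELT3-245 (difference -2.26, adjusted p = 4.33e-05 from limma). Cxcl10 and Cxcl1 had the same pattern, at 1.05 and 0.65 in ELT3-245. Mpzl2, an adhesion molecule, Igfbp5, Itga1 and Selenop, the selenium carrier, rose in ELT3 and fell in ELT3-245, with differences of 3.18, 2.56, 2.0 and 2.04.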

How the data were processed

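RNA of 12 cultures, 3 each of ELT3 and ELT3-245 with rapamycin and with DMSO, had been read on rat Clariom S arrays. The deposited table holds log2 signals that the authors made with RMA (background correction, quantile normalization and summary of probes), of a version not given in the sources used here. Such a scale evens out differences of total RNA between arrays. All 12 columns matched a sample by title, and 0 did not. Of 23188 probe sets 15049 had 1 gene symbol in the platform annotation and 8139 had none and were tested unnamed. Where several probe sets share a symbol (10 symbols), the brightest on average was taken.

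The values were fitted as deposited, with 4 group means, in limma 3.58.1 (R 4.3.3; 8 residual and 3.91 prior degrees of freedom), with Benjamini-Hochberg adjustment over all probe sets. A call needed an adjusted p under 0.05 and a change of 1.5-fold, the fold threshold of the study. The difference of responses is the ELT3 change minus the ELT3-245 change in the same fit. The number of arrays limits the precision. The arrays are those of the labelled groups, but the comparison to describe, the gene lists and the motif spellings were chosen with earlier results of these data known. Named were, for each list, the called members of largest change, up to 8 in each direction, and members that define the pathway, then, outside the lists, the 25 largest rises and the 25 largest falls without overlap of the arrays, and, among genes with a called difference and among those with opposite calls, the 10 of largest ELT3 change in each direction. Outside this rule, Aars1, Asns, Cdkn1a, Cdkn1b, Chac1, Cnn1, Ddit3, E2f1, Egr1, Ero1a, Etv5, Fads1, Fbl, Fen1, Fos, Foxm1, Gapdh, Iars1, Igfbp5, Insig1, Insr, Lars1, Ldha, Lpin1, Mars1, Mrpl12, Mthfd2, Myh11, Nars1, Nbr1, Nop56, Nup43, Pcna, Polr1b, Polr3g, Rptor, Rrm1, Rrm2, Scd2, Sesn2, Slc38a2, Slc7a5, Sqle, Tars1, Tk1, Tm7sf2, Trib3, Ubtf, Yars1, Zfp36l1, Zfp608 and the low markers were named after their values were seen. Promoters were those of RefSeq (GRCr8), 250 bases before to 50 after the start, searched on both strands. The alternatives tried were other sets of arrays, normalizations, variance models, fold thresholds and tests.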

Additional observations from a re-analysis of the deposited data

Results flagged for a closer look

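The results that stand out by test are differences between the lines. The ELT3 change minus the ELT3-245 change, tested as a difference of responses in limma, was called for 478 probe sets with the ELT3 change higher and 503 with it lower, and for 89 of the named genes. Groups of 3 arrays are too small for a test of a single array that stands apart. Of the 89 differences 58 were still called without any 1 of the 12 arrays, and 31 were lost without at least 1 of them. The sizes are given on the log2 scale, as values without an account of their source. The number of the 12 arrays whose omission, each alone, lost the call was 12 for Tk1, 11 for Atp6v0b, Gnl3, Hbegf and Nolc1, 10 for B2m, Cdc7, Chaf1b, Mthfd1l and Mthfd2, 9 for Cdc25b, Cdt1, Polr1b, Rrm1, Tcp11l2, Timp3, Tlr5 and Txnip. It was 8 for Egln3 and Rsad2, 7 for Ccna2, Ifit3 and Tm7sf2, 6 for Dkc1, Irs2 and Sntb1, 5 for Cdkn2b, 4 for Prps1, 2 for Prelp and 1 for Cdk2 and Psat1. Quantile normalization lost those of Atp6v0b, Nolc1 and Tk1.

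Among the genes of DNA replication, mitosis and the cell cycle, the ELT3 change was the lower one for Pold2 (-1.36), Orc1 (-1.16), Cdt1 (-1.10), Fen1 (-0.92), Cdc7 (-0.78), Cdkn1a (-0.76), Ccna2 (-0.74), Cdc6 (-0.74), Chaf1b (-0.74), Cdc25b (-0.72), Ccnd1 (-0.67), Cdk2 (-0.65), Rrm1 (-0.62) and Tk1 (-0.60). It was the higher one there for Cdkn2b (0.88). Among the genes of ribosome biogenesis and nucleotide synthesis, the ELT3 change was the lower one for Nop2 (-1.53), Prps2 (-1.38), Dkc1 (-1.12), Nop56 (-1.0), Polr1b (-0.80), Prps1 (-0.75), Gnl3 (-0.72) and Nolc1 (-0.63). Among the genes of amino acid supply, sterols, glycolysis and the lysosome, the ELT3 change was the lower one for Chac1 (-1.32), Slc1a5 (-1.28), Mthfd1l (-1.21), Psat1 (-0.98), Slc7a5 (-0.98), Slc16a1 (-0.88), Atp6v0b (-0.79), Ero1a (-0.71) and Mthfd2 (-0.66). It was the higher one there for Gpnmb (1.23), Tm7sf2 (1.05), Egln3 (1.01) and Vldlr (0.93). Among the genes of mTOR, insulin and growth factors, the ELT3 change was the lower one for Pdgfc (-2.26) and Txnip (-0.79). It was the higher one there for Igfbp5 (2.56), Fbxo32 (2.35), Sesn3 (1.55), Irs1 (1.21), Pdcd4 (1.17), Pdgfra (0.87), Maf1 (0.76), Irs2 (0.72) and Hbegf (0.66). Among the genes of smooth muscle, adhesion and matrix, the ELT3 change was the lower one for Tnc (-1.89), Timp3 (-1.16) and Tagln (-0.81). It was the higher one there for Itga1 (2.0), Ocln (2.0), Itga8 (1.84), Actg2 (1.82), Krt8 (1.79), Synpo2 (1.74), Mmp11 (1.12), Adamts1 (1.11), Acta2 (1.02) and Cald1 (0.89). Among the genes of Wnt, TGF-β, interferon and chemokines, the ELT3 change was the lower one for Oasl (-2.58), Cxcl10 (-1.71), Ifit3 (-1.56), Cxcl1 (-1.41), Ccl2 (-1.19), Axin2 (-1.15), Rsad2 (-1.11) and Inhba (-1.10). It was the higher one there for Sfrp4 (1.85), Lef1 (1.49), Dkk3 (1.22) and B2m (0.62). Outside these lists the ELT3 change was the lower one for Avpr1a (-2.39), Maoa (-1.83), Anpep (-1.71), Tlr5 (-1.05), Sntb1 (-0.96) and Nup43 (-0.85). The higher ELT3 change outside them was that of Mpzl2 (3.18), Prr15 (3.09), Serpinb9 (2.53), Oas1k (2.49), Acta1 (2.32), Selenop (2.04), Klhl24 (1.69), Tp53inp1 (1.67), Prelp (1.27), Bhlhe40 (1.01) and Tcp11l2 (0.99).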

How the results depend on the processing

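The counts of 1732 probe sets higher and 1960 lower kept within 1.5 times of these values with the 6 ELT3 arrays alone (1632 and 1875), quantile normalization (1739 and 1921), median centring (1439 and 2396), an intensity trend, robust moderation, array weights, leaving out dim or unnamed probe sets, and leaving out each ELT3 array (1617 to 1815 higher and 1803 to 2038 lower, with 86.2% to 90.1% of the 3692 calls made again in the same direction). They moved with the test or the threshold. A test against 1.5-fold (limma treat) gave 455 and 447, an unequal-variance test gene by gene 634 and 705, a 2-fold threshold 595 and 603, and no fold threshold 2722 and 3143. The differences of responses (478 and 503) numbered 545 and 507 after quantile normalization and 490 and 518 with no fold threshold, and ranged from 284 to 409 and from 250 to 486 when 1 of the 12 arrays was left out. The replicate numbers did not pair the arrays, since the deviations of same-numbered arrays correlated at -0.0966, -0.0173 and -0.124 and no array correlated best with its own number. With the replicate number as a block the counts were 1735 and 1956, and 415 and 410 for the differences, and with the block in a fit of the 6 ELT3 arrays, added after seeing the data, 1439 and 1620. The block changed no call of a named gene in the first fit and that of Igfbp5 in the second. Of 226 called named genes, 57 were no longer called by treat and 75 by the unequal-variance test, and beside these and Igfbp5 only Ccnd3, Cxcl10 and Cpt2 lost their call, each when 1 array was left out. Of the 29 not called, Esr1 (0.59), Insr (0.68), Pdgfrb (0.60 to 0.62), Pgr (0.60) and Tfe3 (-0.65) passed when 1 array was left out, and Pdgfrb (0.62 and 0.60) and Insr (0.61) also did with quantile normalization or array weights, or array weights alone. Values next to 0 turned sign, with Mtor between -0.20 and 0.064 and Tm7sf2 between -0.15 and 0.10 when 1 ELT3 array was left out. The cause of these changes was not tested. The arrays give no read depth, and dim probe sets near the background limit what can be seen at low signal.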

Other observations

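Other groups of genes, gathered by their symbols after the values had been seen and described with no test, showed responses that the lists above did not cover. Of 63 genes of mitochondrial ribosomal proteins 29 were lower and 0 higher in rapamycin (46.0%, against 8.45% of all probe sets), with a median of -0.56 and 27 lower without ELT3 rapamycin replicate 3. Mrpl12, at -1.76, had the largest change of them. Of 68 genes of cytosolic ribosomal proteins, whose mRNAs are best known for control at translation, 1 was lower and 0 higher, 17 had an unadjusted p under 0.05 in either direction in limma, and the median was 0.13 (0.06 after median centring). The proteasome, the protease complex of the cell, had 16 of 37 subunit genes lower and 0 higher (43.2%, median -0.56), and 17 lower and 1 higher without that array. Of 19 nucleoporin genes 11 were lower (57.9%, median -0.64), Nup43 the most at -1.54, and of 21 genes of mitochondrial protein import 8 were, or 6 without that array. In ELT3-245, 14 of the mitochondrial ribosomal, 13 of the proteasome and 3 of the nucleoporin genes were lower.

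Of 161 zinc finger genes named Zfp, most of which encode DNA-binding proteins of unknown role, 22 were higher and 5 lower (13.7% higher, against 7.47% of all probe sets), with a median of 0.25, or 0.18 after median centring. Zfp36l1, whose protein binds mRNA rather than DNA, had the largest rise of these, at 1.89, before Zfp608, at 1.54. Of 23 HOX genes, which keep the position of a tissue along the body axis, 0 were called, 5 had an unadjusted p under 0.05 in limma, and the median was 0.02.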
